A study of Mus musculus with 9 samples.

Results

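Presentation of cytosolic peptides on MHC class I was followed through 10 genes: the classical heavy chains H2-K1 and H2-D1, the light chain B2m, the transporter genes Tap1 and Tap2, the loading chaperone Tapbp, the immunoproteasome subunits Psmb8, Psmb9 and Psmb10, and the transactivator Nlrc5. They were chosen by function through their symbols in the array annotation, with earlier results of these data known. Of the 10 genes, 8 had at least 1 probeset annotated to that gene alone, among 19937 genes with such a probeset and 34760 probesets in all. H2-K1 and H2-D1 had none. Both were read by 2 joint probesets, each annotated to H2-K1, H2-D1 and LOC547349, so the signal of these probesets cannot be assigned to 1 of the heavy chains. The probeset that lists H2-D1 first (10444780) is called the H2-D1-first probeset here, and the one that lists H2-K1 first (10450075) the H2-K1-first probeset.

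RNA was taken from HC11 cells, a mammary epithelial line established from BALB/c mice at mid-pregnancy. Each of 3 strains carried a stably transfected construct of Mkl1, which activates transcription together with serum response factor (SRF), with red fluorescent protein (RFP) at its C terminus. HC11-FL cells expressed full length Mkl1-RFP and were the control, HC11-mutB1 cells expressed Mkl1-RFP with a mutation in the B1 site, through which Mkl1 binds SRF, and HC11-ΔSAP cells expressed Mkl1-RFP that lacks the SAP domain, through which Mkl1 may bind DNA. Endogenous Mkl1 was present in all 3 strains, each construct was represented by 1 sorted strain, and all were kept for 48 h in RPMI with 0.03% FCS and no EGF. A strain without a construct was not analysed here. There were 3 arrays per strain and 9 in all, and nothing in the labels says that they came from separate cultures, so that p-values measure the spread between these samples, which may be technical.

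Levels are log2 values after robust multi-array averaging (RMA), a step of 1 is a 2-fold difference, and levels of different probesets cannot be ranked against each other. Array medians lay between 4.53 and 4.60, and a mean level under 4 was treated as close to background. Epithelial identity was visible in 7 of 8 mammary epithelial markers with a mean of at least 4 in every strain. The mean over these 8 markers was 9.21 to 9.30 in HC11-FL arrays, 9.34 to 9.40 in HC11-mutB1 arrays and 8.80 to 8.85 in HC11-ΔSAP arrays. Of 9 leukocyte markers 4 reached this level in each strain, with means over the 9 of 4.58 to 4.69, 4.60 to 4.62 and 4.81 to 4.84 in the same order, and Ptprc, Itgam and Lyz2 stayed under it. Of those that reached it, Cd14 had means of 8.24, 8.82 and 9.74 and was higher in both mutants than in the control (adjusted p = 8.75e-05 and 6.33e-07), and Cd68 had means of 7.69, 7.35 and 8.14 and was lower in HC11-mutB1 (adjusted p = 0.000622) and higher in HC11-ΔSAP (adjusted p = 0.000129). Between the mutants, HC11-ΔSAP had more of both (adjusted p = 8.41e-06 and 7.57e-06), and Cd3e and Csf1r did not pass in any comparison. Fibroblast markers reached it in 6 of 7 cases (5.41 to 5.56, 5.20 to 5.31 and 5.54 to 5.60) and endothelial markers in 0 of 4. Single markers changed both ways. Against HC11-FL, 2 of 8 epithelial markers were lower and 3 higher in HC11-mutB1, and 5 lower and 2 higher in HC11-ΔSAP. Of 7 fibroblast markers 2 were lower and 1 higher in each mutant. Probesets with a mean of at least 4 were lower and higher in 8.32% and 11.9%, and 10.1% and 11.9%. In this order of strains, Krt5 differed by 1.15 and -1.90, Krt18 by -0.65 and -1.36, Dcn by -0.48 and 1.81 and Pdgfrb by -0.87 and -0.38. Leukocyte and endothelial cells carry high class I levels, and the part of these marker differences in the results below was not tested. The Mkl1 probeset, whose probe positions relative to the constructs were not examined, lay at a mean of 9.95 in the control, against which HC11-mutB1 at 9.83 was not called (adjusted p = 0.313) and HC11-ΔSAP at 9.47 was lower (adjusted p = 0.00177).

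Nearly every nucleated cell displays fragments of its own proteins on MHC class I, where cytotoxic T cells and natural killer cells survey them. Proteasomes cut the proteins, with the catalytic subunits Psmb8, Psmb9 and Psmb10 replacing constitutive ones in the immunoproteasome, and the Tap1/Tap2 transporter carries peptides into the endoplasmic reticulum, where tapasin (Tapbp) bridges it to a heavy chain paired with B2m. Most of these genes respond to interferons, and Nlrc5 acts at a shared promoter module of the class I genes. On mouse chromosome 17 the genes of this pathway lie close together within the MHC (GRCm38.p6): Tapbp at chr17:33919478-33929290, H2-K1 at chr17:33996012-34000619, Psmb9 at chr17:34182030-34187330, Tap1 at chr17:34187556-34197225, Psmb8 at chr17:34198195-34201454, Tap2 at chr17:34204479-34216321 and H2-D1 at chr17:35263094-35267497. B2m lies outside it at chr2:122147687-122153082, as do Nlrc5 at chr8:94434335-94527272 and Psmb10 at chr8:105935728-105938392.

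The class I genes did not change together in either mutant strain. In HC11-mutB1 cells the joint heavy chain signal, B2m and Psmb8 were lower than in HC11-FL cells and Psmb10 was higher. In HC11-ΔSAP cells Psmb8 was lower as well, 1 of the 2 heavy chain probesets was lower, and Psmb10 and Tap1 were higher. Of these HC11-ΔSAP calls, that of Psmb10 held in all 9 fits with 1 array left out. Those of the H2-K1-first probeset, Psmb8 and Tap1 held in 6, 3 and 1 of the 9. Tap2, Tapbp, Psmb9 and Nlrc5 did not pass the test in any comparison. Tapbp in HC11-ΔSAP versus HC11-FL only just missed the threshold (limma adjusted p = 0.0104).

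**Figure D1:**
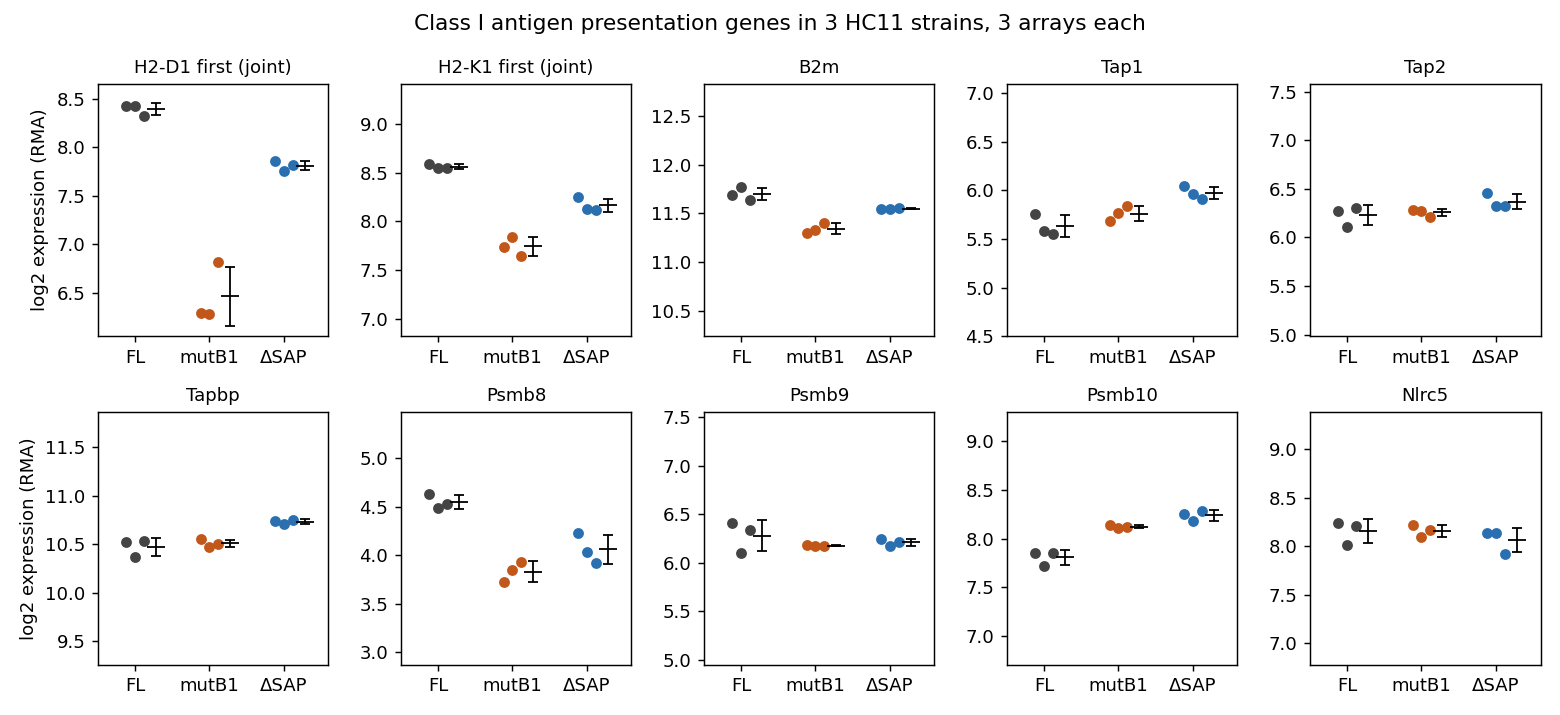
Each panel plots the log2 expression (RMA) of 1 gene or joint heavy chain probeset in 3 HC11-FL (black), 3 HC11-mutB1 (orange) and 3 HC11-ΔSAP arrays (blue). Points are arrays, bars beside them the mean ± SD (n = 3), and every panel spans the same log2 range around its own centre. The HC11-mutB1 arrays lie below all HC11-FL arrays for both heavy chain probesets, B2m and Psmb8, and above them for Psmb10.

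The heavy chain probesets gave the largest differences of the pathway in HC11-mutB1 versus HC11-FL and between the mutants. In HC11-ΔSAP versus HC11-FL, Psmb8 (-0.49) and Psmb10 (0.43) differed more than the H2-K1-first probeset (-0.40). At the H2-D1-first probeset the levels were 8.42, 8.43 and 8.32 in HC11-FL, 6.30, 6.28 and 6.82 in HC11-mutB1 and 7.85, 7.76 and 7.82 in HC11-ΔSAP cells. HC11-mutB1 lay below both other strains in every array, with HC11-ΔSAP in between and no overlap of the strains. Against HC11-FL, the signal of HC11-mutB1 cells was 3.79-fold lower (log2 fold change -1.92, SE 0.13, adjusted p = 3.38e-05). HC11-ΔSAP cells differed from HC11-FL cells by -0.58 (95% interval -0.89 to -0.27, adjusted p = 0.0175), which missed the threshold of 0.01. They were 2.54-fold higher than HC11-mutB1 cells (log2 fold change 1.34, SE 0.13, adjusted p = 0.000282). The third HC11-mutB1 array stood apart from the other two, and without it the difference of HC11-ΔSAP from HC11-FL passed with an adjusted p of 0.000294.

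The H2-K1-first probeset read 8.59, 8.55 and 8.55 in HC11-FL, 7.74, 7.85 and 7.64 in HC11-mutB1 and 8.25, 8.13 and 8.12 in HC11-ΔSAP cells. The order of the strains was that of the other joint probeset, again without overlap, but the steps were smaller. Relative to the control it was lower 1.77-fold in HC11-mutB1 (-0.82, SE 0.06, adjusted p = 5.03e-05) and 1.32-fold in HC11-ΔSAP cells (-0.40, SE 0.06, adjusted p = 0.00223). Between the mutants, HC11-ΔSAP was 1.34-fold higher (0.42, SE 0.06, adjusted p = 0.0023). The difference of HC11-ΔSAP from HC11-FL lost its call without HC11-FL replicate 1, HC11-ΔSAP replicate 2 or HC11-ΔSAP replicate 3 (adjusted p up to 0.0119), and that between the mutants without HC11-mutB1 replicate 1 (adjusted p = 0.0113). Class I heavy chains are highly polymorphic and HC11 cells come from BALB/c mice. How well the probes match the BALB/c alleles was not tested.

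B2m, the light chain that every classical heavy chain needs to fold and reach the surface, was highly expressed in all strains. Its levels were 11.69, 11.77 and 11.64 in HC11-FL, 11.30, 11.33 and 11.41 in HC11-mutB1 and 11.55, 11.54 and 11.56 in HC11-ΔSAP cells. HC11-mutB1 arrays were the lowest, and no array of 1 strain lay within the range of another. Relative to the control, HC11-mutB1 cells had 1.28-fold less B2m transcript (log2 fold change -0.35, SE 0.05, adjusted p = 0.00142). HC11-ΔSAP cells differed from HC11-FL by -0.15 (95% interval -0.27 to -0.04, adjusted p = 0.0751) and from HC11-mutB1 by 0.20 (95% interval 0.09 to 0.32, adjusted p = 0.027), neither of which passed.

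The proximal promoters of B2m and H2-D1 are shown because class I genes share a regulatory module and both B2m and the joint heavy chain signal were lower in HC11-mutB1 cells. The joint signal cannot be assigned to H2-D1, and a part of the module in these differences was not tested. Sequences are from RefSeq on GRCm38.p6, the C57BL/6J reference, both on the plus strand up to the base before the transcription start, for B2m chr2:122147487-122147686 and for H2-D1 chr17:35262894-35263093. Capitals mark, on either strand, TGACG (the core of a cyclic AMP element), the box that reads ATTGG or its complement, an NF-kB site and, in B2m, an interferon-stimulated response element (ISRE, searched as a repeat of GAAA with 2 bases between the copies). None of the capital stretches of different motifs overlap in the printed sequences.
B2m: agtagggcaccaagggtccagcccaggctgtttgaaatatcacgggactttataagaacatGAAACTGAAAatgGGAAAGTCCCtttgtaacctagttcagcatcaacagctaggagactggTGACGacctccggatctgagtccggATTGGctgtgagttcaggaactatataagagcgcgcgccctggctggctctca
H2-D1: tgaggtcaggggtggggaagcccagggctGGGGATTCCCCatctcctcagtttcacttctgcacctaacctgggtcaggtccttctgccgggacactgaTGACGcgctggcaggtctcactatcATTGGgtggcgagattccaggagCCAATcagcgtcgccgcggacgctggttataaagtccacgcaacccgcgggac
TGACG and ATTGG followed each other with their first bases 25 bases apart in B2m, in H2-D1 and in both overlapping windows listed for H2-K1. The same spacing occurred in 30 of 32851 RefSeq promoter windows (0.0913%). It was noticed after the matches had been seen and is a description. Searched over the 250 bases before each start on both strands, the NF-kB site was found in 4 of the 9 windows of the class I genes (B2m, H2-D1 and both of H2-K1) and in 5.93% of all windows. TGACG was found in 6 of 9 windows and 17.8% of all, and ATTGG in 7 of 9 and 33.8%. The ISRE by these exact letters was in 1 of 9, that of B2m, and 2.98%. Variants with other letters were not searched, so a window without a match may still hold such an element. A CArG box, the site SRF binds, was in 0 of the 9 windows and in 1.47% of all. The table of windows had entries for 8 of the 10 genes, with none for Tap2 and Nlrc5.

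Of the immunoproteasome subunits, Psmb8 was lower and Psmb10 higher in both mutants than in HC11-FL cells, and Psmb9 did not pass. Psmb8, the chymotrypsin-like subunit also known as LMP7, read 4.63, 4.48 and 4.53 in HC11-FL, 3.72, 3.85 and 3.93 in HC11-mutB1 and 4.22, 4.03 and 3.92 in HC11-ΔSAP cells. All HC11-FL arrays were above all arrays of the mutants, whose ranges overlapped. The difference was -0.71 in HC11-mutB1 (SE 0.09, adjusted p = 0.000768) and -0.49 for HC11-ΔSAP (SE 0.09, adjusted p = 0.00534). The HC11-mutB1 mean of 3.83 was under 4 and so close to background, where a log2 difference can understate the change in transcript. The HC11-ΔSAP call was lost without any 1 of the 3 HC11-FL arrays, HC11-mutB1 replicate 2, HC11-ΔSAP replicate 2 or HC11-ΔSAP replicate 3, with an adjusted p of up to 0.0236.

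Psmb10, the trypsin-like subunit MECL-1, read 7.85, 7.72 and 7.86 in HC11-FL, 8.14, 8.11 and 8.11 in HC11-mutB1 and 8.26, 8.18 and 8.29 in HC11-ΔSAP cells. Both mutant strains were above every HC11-FL array. The increase was 1.24-fold for HC11-mutB1 (0.31, SE 0.05, adjusted p = 0.00387) and 1.35-fold for HC11-ΔSAP (0.43, SE 0.05, adjusted p = 0.000634), and the mutants differed by 0.12 (95% interval -0.0025 to 0.24, adjusted p = 0.209). The HC11-mutB1 call was lost without any 1 of the HC11-mutB1 arrays (adjusted p up to 0.0177).

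Psmb9, the subunit known as LMP2, gave 6.41, 6.10 and 6.33 in HC11-FL, 6.19, 6.17 and 6.18 in HC11-mutB1 and 6.24, 6.17 and 6.22 in HC11-ΔSAP cells. The HC11-FL arrays spread around those of both mutants. The differences of -0.10 (95% interval -0.28 to 0.07, adjusted p = 0.457) and -0.07 (95% interval -0.24 to 0.11, adjusted p = 0.662) did not pass.

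The peptide transporter was read by 1 probeset for each of its chains. Tap1 levels were 5.76, 5.58 and 5.55 in HC11-FL, 5.69, 5.76 and 5.83 in HC11-mutB1 and 6.04, 5.96 and 5.91 in HC11-ΔSAP cells. The HC11-ΔSAP arrays were above all others, and those of HC11-FL and HC11-mutB1 overlapped. HC11-ΔSAP cells had 1.27-fold more Tap1 than the control (log2 fold change 0.34, SE 0.07, adjusted p = 0.00945), a call that held in 1 of 9 fits with 1 array left out, the fit without HC11-FL replicate 1 (adjusted p 0.00459 to 0.0379 over the 9). The difference in HC11-mutB1 cells was 0.13 (95% interval -0.03 to 0.29, adjusted p = 0.281).

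Tap2 lay at 6.28, 6.11 and 6.30 in HC11-FL, 6.29, 6.27 and 6.22 in HC11-mutB1 and 6.46, 6.32 and 6.33 in HC11-ΔSAP cells. The HC11-ΔSAP arrays were slightly above the rest, by 0.14 over HC11-FL (95% interval -0.01 to 0.29, adjusted p = 0.214), and HC11-mutB1 differed by 0.03 (adjusted p = 0.837). Tapbp, which holds empty heavy chains at the transporter, read 10.52, 10.37 and 10.53 in HC11-FL, 10.55, 10.47 and 10.51 in HC11-mutB1 and 10.74, 10.71 and 10.75 in HC11-ΔSAP cells. Its HC11-ΔSAP arrays were again above all others, by 0.26 over HC11-FL (95% interval 0.14 to 0.39, adjusted p = 0.0104) and by 0.23 over HC11-mutB1 (95% interval 0.10 to 0.35, adjusted p = 0.026), neither of which passed. A further 2 probesets shared by Tapbp and the ribosomal protein gene Rps3a1 did not pass in any comparison and cannot be assigned to Tapbp.

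Tap1 and Psmb9 are transcribed away from each other from a common promoter region, shown here because Tap1 changed in HC11-ΔSAP cells while Psmb9 did not pass, together with the promoter of Psmb8, whose own start lies just beyond Tap1. The region between the starts of Psmb9 and Tap1 is 225 bases long (GRCm38.p6, chr17:34187331-34187555, plus strand, the direction of Tap1), and the Psmb8 sequence ends at the base before its start (chr17:34198045-34198194, plus strand). Capitals mark the complement of ATTGG and the TGACG element in the shared region and, in Psmb8, a gamma-activated site (GAS, searched as TTCNNNGAA), to which interferon-activated STAT dimers bind.
Psmb9-Tap1: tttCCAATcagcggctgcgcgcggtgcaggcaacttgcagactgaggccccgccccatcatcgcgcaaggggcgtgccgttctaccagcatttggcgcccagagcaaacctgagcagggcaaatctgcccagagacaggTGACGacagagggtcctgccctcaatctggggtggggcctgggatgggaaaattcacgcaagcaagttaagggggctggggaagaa
Psmb8: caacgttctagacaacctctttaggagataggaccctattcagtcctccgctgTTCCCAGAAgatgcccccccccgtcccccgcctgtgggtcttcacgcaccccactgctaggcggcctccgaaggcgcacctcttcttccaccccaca
Neither an ISRE nor a GAS nor an NF-kB site by these letters was found between Psmb9 and Tap1. The GAS was found in 1 of the 9 windows of the class I genes and in 7.02% of all windows.

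**Figure D2:**
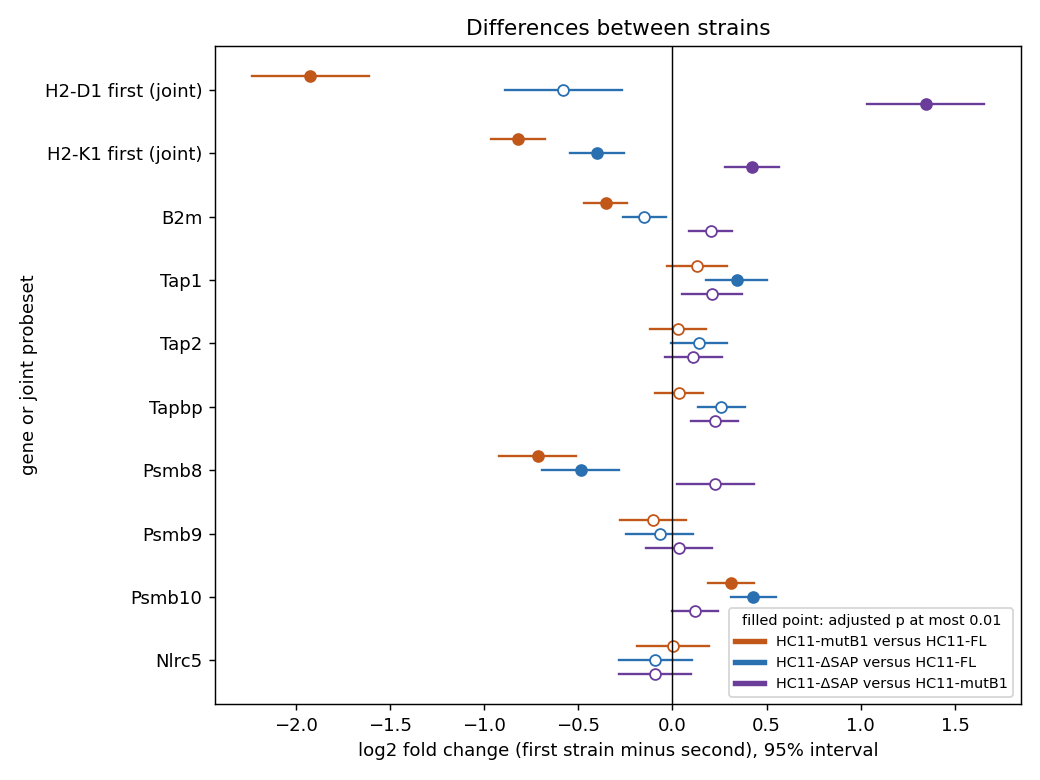
Log2 fold changes (x axis) of each gene or joint heavy chain probeset (y axis) for HC11-mutB1 versus HC11-FL (orange), HC11-ΔSAP versus HC11-FL (blue) and HC11-ΔSAP versus HC11-mutB1 (purple). Lines are 95% intervals and filled points have an adjusted p of at most 0.01. The longest distances from 0 are those of the H2-D1-first probeset, at -1.92 and 1.34.

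Nlrc5, a NOD-like receptor that enters the nucleus and drives class I transcription, was covered by 19 probesets of its own, of which 13 had a mean of at least 4. The brightest read 8.24, 8.01 and 8.21 in HC11-FL, 8.21, 8.09 and 8.16 in HC11-mutB1 and 8.13, 8.13 and 7.92 in HC11-ΔSAP cells. The strains overlapped, with differences from HC11-FL of 0.00 (95% interval -0.19 to 0.20, adjusted p = 0.992) and -0.09 (95% interval -0.28 to 0.10, adjusted p = 0.585). With limma, 0 of the 19 probesets changed in any comparison. At an unadjusted p under 0.05 there were 2 in HC11-mutB1, 1 in HC11-ΔSAP and 0 between the mutants. Over the whole array, 28.4%, 27.7% and 25.2% of probesets had such a p in the same order. At a mean of at least 4 the shares were 43%, 42.7% and 37.7%. Array-wide calls, lower then higher, came to 5.04% and 7.1%, 6.02% and 7.1%, and 5.04% and 4.34%. The 19 probesets all read 1 gene and do not count as separate genes. Their log2 fold changes ran from -0.30 to 0.17 in HC11-mutB1 (median -0.03) and from -0.21 to 0.19 in HC11-ΔSAP cells (median -0.06). Several Nlrc5 values are repeated exactly between arrays, as in 15714 probesets of the table, so that its SE may be too small. The other 7 genes and the heavy chain probesets have no repeated values. Some related genes described below do, among them Cd1d1, Ganab, Irf2 and Rfxank, and the same limit holds for them.

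**Figure D3:**
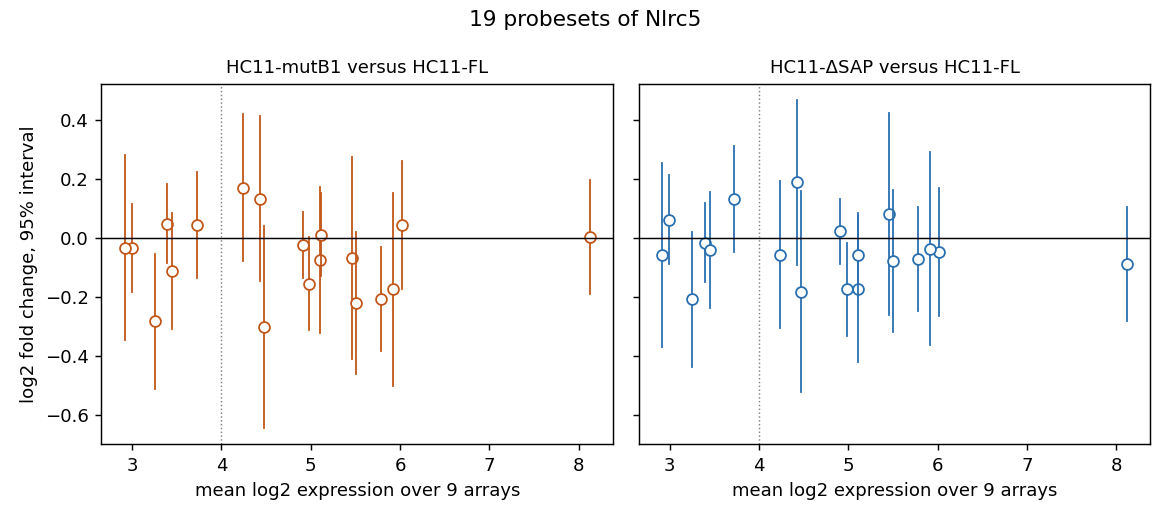
Each point is 1 of 19 Nlrc5 probesets, placed by its mean log2 expression over 9 arrays (x axis) and its log2 fold change against HC11-FL (y axis), for HC11-mutB1 (left) and HC11-ΔSAP (right), with 95% intervals as lines and a dotted line at a mean of 4. All points are open because none had an adjusted p of at most 0.01, and they lie between -0.30 and 0.19.

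Over the 8 genes with a probeset of their own, 2 were lower and 1 was higher in HC11-mutB1 than in the control cells. Of all 34760 probesets 5.04% were lower and 7.1% higher, and of the 20286 with a mean of at least 4, which includes all 8, 8.32% and 11.9%. In HC11-ΔSAP cells 1 was lower and 2 were higher, against 6.02% and 7.1% of all probesets and 10.1% and 11.9% of those at or above a mean of 4. Without HC11-FL replicate 2 or 3, HC11-mutB1 replicate 2 or HC11-ΔSAP replicate 2 or 3 this count of 3 was 1, that of Psmb10. Between HC11-ΔSAP and HC11-mutB1 cells limma called 0 of 8 (against 5.04% lower and 4.34% higher), with 4 at an unadjusted p under 0.05, as were 25.2% of all probesets and 37.7% of those with a mean of at least 4.

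The study's own filters also ask for a difference of at least 2-fold and a mean of at least 4. Under them 0 of the 8 genes passed in any comparison, where 1.67%, 1.75% and 1.67% of all probesets passed in HC11-mutB1 versus HC11-FL, HC11-ΔSAP versus HC11-FL and HC11-ΔSAP versus HC11-mutB1. The H2-D1-first probeset passed them in HC11-mutB1 versus HC11-FL and between the mutants. Median log2 fold changes of the 8 genes were 0.02, 0.04 and 0.16 in the 3 comparisons, beside -0.02, -0.01 and 0.01 for all probesets with a mean of at least 4. Both comparisons with HC11-FL use the same 3 control arrays.

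Other class I heavy chains include the nonclassical H2-Q, H2-T and H2-M genes and relatives such as Cd1d1, which presents lipids, and Mr1, which presents vitamin metabolites. Of 22 listed, 13 were measured alone and 8 of these had a mean of at least 4. In HC11-mutB1 cells 3 were lower and 1 was higher, against 5.04% and 7.1% of all probesets and 8.32% and 11.9% of those with a mean of at least 4. In HC11-ΔSAP cells 1 was lower and 0 were higher, against 6.02% and 7.1% of all and 10.1% and 11.9% of the brighter probesets. H2-Q4, with a mean of 7.04 in the control, read 6.24, 6.37 and 6.29 in HC11-mutB1 and 6.69, 6.43 and 6.51 in HC11-ΔSAP cells. It was lower in both mutants, without overlap with the control (-0.75, SE 0.08, adjusted p = 0.0003, and -0.50, SE 0.08, adjusted p = 0.00234).

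Mr1 was lower in HC11-mutB1 cells, where 4.19, 3.95 and 4.33 stood against 4.90, 5.14 and 5.09 in HC11-FL (-0.89, SE 0.10, adjusted p = 0.00052), and HC11-ΔSAP cells differed from HC11-FL by 0.02 (adjusted p = 0.952). H2-T24 was also lower in HC11-mutB1 cells (-0.66, SE 0.11, adjusted p = 0.00288). Cd1d1 went the other way, with 5.89, 6.32 and 6.72 in HC11-mutB1 above 5.07, 4.86 and 4.92 in HC11-FL cells (1.36, SE 0.18, adjusted p = 0.0011). Cd1d1 and Mr1 also differed between the mutants, by -1.01 (adjusted p = 0.00653) and 0.90 (adjusted p = 0.00057). With 1 array left out, calls were lost for H2-T24 in HC11-mutB1 (without HC11-FL replicate 3 or HC11-mutB1 replicate 1 or 2, adjusted p up to 0.0133), H2-Q4 in HC11-ΔSAP (without HC11-ΔSAP replicate 3, adjusted p = 0.0119) and Cd1d1 between the mutants (in all fits but those without HC11-mutB1 replicate 1 or 3, adjusted p up to 0.0271).

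Peptide supply and loading partners were measured for 18 of 19 genes. There were 3 lower and 2 higher genes in HC11-mutB1, 1 lower and 3 higher genes in HC11-ΔSAP, and between the mutants 1 was lower and 5 were higher in HC11-ΔSAP. Probesets with a mean of at least 4, as all 18 had, were lower and higher in 8.32% and 11.9%, 10.1% and 11.9%, and 8.45% and 7.25% of cases in the same order of comparisons. Psme1 and Psme2, which together form the cap that opens the proteasome and is used by the immunoproteasome, were both lower in HC11-mutB1 cells than in either other strain. Psme1 read 10.18, 10.10 and 10.12 in HC11-FL, 9.37, 9.40 and 9.29 in HC11-mutB1 and 10.05, 9.96 and 10.00 in HC11-ΔSAP cells, a change of -0.78 (SE 0.05, adjusted p = 1.8e-05) in HC11-mutB1. Psme2 fell by 0.64 (SE 0.06, adjusted p = 0.00012), from a mean of 10.06 to 9.42, and lay at 10.06 in HC11-ΔSAP cells. Between the mutants each was higher in HC11-ΔSAP by 0.65 (adjusted p = 5.63e-05 for Psme1 and 0.00014 for Psme2). Both genes lie on chromosome 14, at chr14:55578494-55581527 and chr14:55587440-55591101.

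Tapbpl, the tapasin-related editor of class I peptides, was higher in HC11-mutB1 cells (7.74, 7.76 and 7.64 against 6.88, 6.79 and 6.86 in HC11-FL, a difference of 0.87, SE 0.07, adjusted p = 8.09e-05). HC11-ΔSAP cells differed from HC11-FL by 0.11 at Tapbpl (adjusted p = 0.425). Psme4, which encodes another activator of the proteasome, was higher by 0.66 in HC11-mutB1 (SE 0.07, adjusted p = 0.000337) and by 0.43 in HC11-ΔSAP (SE 0.07, adjusted p = 0.00335), the latter call being lost without HC11-ΔSAP replicate 2 or 3 (adjusted p up to 0.0161). The remaining changed genes against HC11-FL, named after their values were seen, were the cytosolic peptidase Blmh, lower in both mutants, and the endoplasmic reticulum genes Calr and Ganab, higher in HC11-ΔSAP cells. Blmh differed by -0.37 in HC11-mutB1 (adjusted p = 0.0012) and by -0.25 in HC11-ΔSAP (adjusted p = 0.00974, just under the threshold). Ganab differed by 0.20 in HC11-ΔSAP (adjusted p = 0.00676). Calr, a chaperone of the loading complex, was higher by 0.40 (adjusted p = 0.000746). With any 1 array left out, 2 of these partners changed in HC11-ΔSAP against HC11-FL instead of 4, and 1 without HC11-ΔSAP replicate 2 or 3.

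The constitutive 20S proteasome core, whose catalytic subunits Psmb5, Psmb6 and Psmb7 are those that the immunoproteasome subunits replace, was measured in full at 14 of 14 genes with mean levels of 8.97 to 10.64. In HC11-mutB1 cells 0 were lower and 1 was higher, and in HC11-ΔSAP cells 1 was lower and 2 were higher, where of all probesets with a mean of at least 4 the shares were 8.32% and 11.9%, and 10.1% and 11.9%. Psma7, a structural subunit, was higher by 0.34 in both mutants (adjusted p = 0.00151 and 0.00134). Psma3 was lower in HC11-ΔSAP by 0.45 relative to HC11-FL (log2 fold change -0.45, adjusted p = 0.00155), and Psmb6, the counterpart of Psmb9, was higher there (0.32, adjusted p = 0.00156). Psmb5, the counterpart of Psmb8, was not called against HC11-FL (-0.26 in HC11-mutB1, adjusted p = 0.0205, and 0.10 in HC11-ΔSAP, adjusted p = 0.357). Between the mutants 2 of the 14 were lower and 1 was higher in HC11-ΔSAP, where the shares were 8.45% and 7.25%. The higher one was Psmb5, with means of 9.13 in HC11-ΔSAP and 8.77 in HC11-mutB1. Its call held in 3 of 9 limma fits with 1 array left out (adjusted p 0.00376 to 0.023).

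Regulators that act at class I promoters were measured for 22 of 24 genes, with 3 lower and 3 higher in HC11-mutB1 and 3 lower and 2 higher in HC11-ΔSAP cells. All 22 had a mean of at least 4, and over all such probesets the shares lower and higher came to 8.32% and 11.9% for HC11-mutB1 and to 10.1% and 11.9% for HC11-ΔSAP. Stat2, Irf9 and Irf7, which carry the type I interferon signal to the ISRE, were the 3 that were lower in HC11-mutB1. Stat2 read 9.16, 9.23 and 9.24 in HC11-FL, 8.02, 8.15 and 8.27 in HC11-mutB1 and 8.42, 8.26 and 8.33 in HC11-ΔSAP cells, so that both mutants were below all control arrays (-1.07, SE 0.07, adjusted p = 2.81e-05, and -0.87, SE 0.07, adjusted p = 7.62e-05). Irf9 changed by -0.74 (adjusted p = 0.0035) and Irf7 by -0.71 (adjusted p = 0.00367) in HC11-mutB1, while in HC11-ΔSAP they differed from HC11-FL by 0.28 (adjusted p = 0.181) and 0.13 (adjusted p = 0.591). Between the mutants both were higher in HC11-ΔSAP, by 1.02 (adjusted p = 0.000763) and 0.83 (adjusted p = 0.00192). The HC11-mutB1 calls were lost without any 1 HC11-FL array or HC11-mutB1 replicate 2 for Irf9 (adjusted p up to 0.0154) and without HC11-FL replicate 1 or 3 or HC11-mutB1 replicate 1 or 2 for Irf7 (adjusted p up to 0.0178), as was that of Irf7 between the mutants without HC11-mutB1 replicate 1 or 2 (adjusted p up to 0.0107).

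Of the 3 subunits of the RFX complex, which binds the class I promoter module together with Nlrc5, Rfxank and Rfxap were higher in both mutants. The DNA-binding subunit Rfx5 did not pass (-0.01, adjusted p = 0.936, and 0.21, adjusted p = 0.0302). Rfxank lay at 6.96, 6.99 and 6.93 in HC11-FL, 7.73, 7.77 and 7.84 in HC11-mutB1 and 7.48, 7.51 and 7.48 in HC11-ΔSAP cells. No strain overlapped another, and Rfxank was higher by 0.82 (SE 0.04, adjusted p = 6.47e-06) and 0.53 (SE 0.04, adjusted p = 6.71e-05). Its values in 2 HC11-ΔSAP arrays are exactly equal, so that these SEs may be too small. Rfxap was higher by 0.44 and 0.33 (adjusted p = 0.000306 and 0.00143). The further changed regulators, named like Rfxap and Rfx5 after their values were seen, were Irf2 in HC11-mutB1 (0.44, adjusted p = 0.00828), and Irf1 (-0.39, adjusted p = 0.00287) and Nfyb (-0.36, adjusted p = 0.00881) in HC11-ΔSAP. With 1 array left out, 3 to 5 regulators changed in HC11-mutB1 instead of 6 (3 without HC11-FL replicate 3 or HC11-mutB1 replicate 2, 4 without HC11-FL replicate 1 or 2) and 3 to 5 in HC11-ΔSAP instead of 5 (3 without HC11-FL replicate 3 or HC11-ΔSAP replicate 1 or 3).

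**Figure D4:**
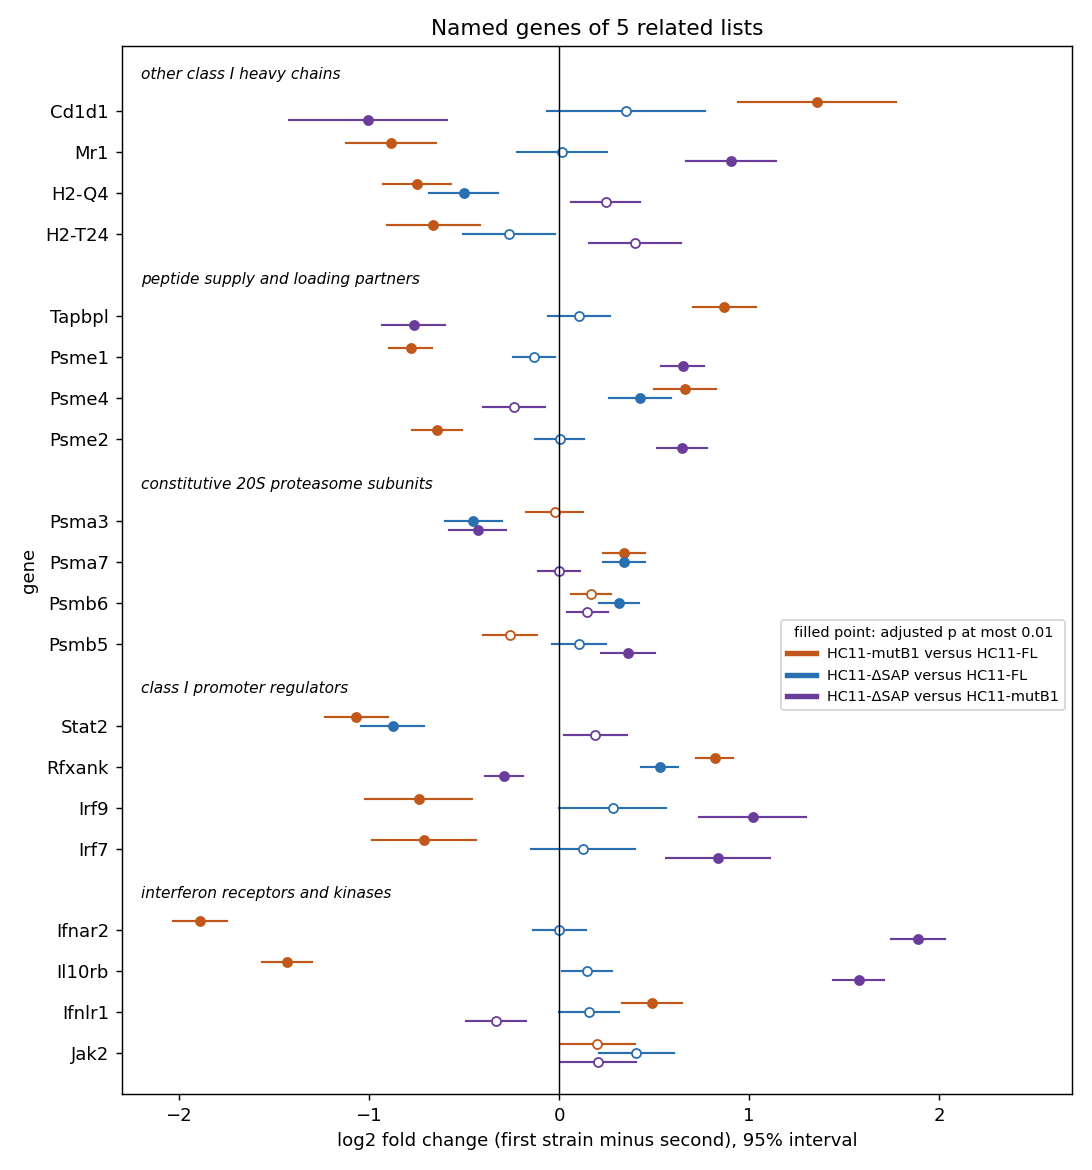
Log2 fold changes (x axis) of the named genes of 5 related lists (y axis) for HC11-mutB1 versus HC11-FL (orange), HC11-ΔSAP versus HC11-FL (blue) and HC11-ΔSAP versus HC11-mutB1 (purple), with 95% intervals as lines. Filled points have an adjusted p of at most 0.01. Ifnar2 and Il10rb have the lowest HC11-mutB1 values, at -1.89 and -1.43, with HC11-ΔSAP values of 0.00 and 0.15 against HC11-FL.

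Interferon receptors and their kinases were measured for 11 of 11 genes. In HC11-mutB1 cells 3 were lower and 1 was higher, in HC11-ΔSAP cells 0 were lower and 1 was higher, and between the mutants 0 were lower and 3 were higher in HC11-ΔSAP. All 11 had a mean of at least 4, where the shares of all probesets were 8.32% lower and 11.9% higher, 10.1% and 11.9%, and 8.45% and 7.25%. Ifnar2, a chain of the type I interferon receptor, read 9.52, 9.64 and 9.52 in HC11-FL, 7.66, 7.65 and 7.71 in HC11-mutB1 and 9.46, 9.58 and 9.65 in HC11-ΔSAP cells. HC11-mutB1 cells had 3.70-fold less Ifnar2 than the control (-1.89, SE 0.06, adjusted p = 6.24e-07), while the HC11-ΔSAP and HC11-FL arrays overlapped (0.00, 95% interval -0.14 to 0.14).

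Il10rb, a chain shared by the receptors for interferon lambda and interleukin 10, was lower in HC11-mutB1 cells too. It read 7.64, 7.78 and 7.69 in HC11-mutB1 against 9.10, 9.18 and 9.11 in HC11-FL (-1.43, SE 0.06, adjusted p = 1.7e-06). Ifnlr1, the specific chain of the interferon lambda receptor, was higher in HC11-mutB1 (0.49, SE 0.07, adjusted p = 0.00149). Ifnar1, the other chain of the type I receptor, was lower in HC11-mutB1 (-0.40, adjusted p = 0.00037) and higher in HC11-ΔSAP cells (0.39, adjusted p = 0.000356). Jak2 did not pass (0.20, adjusted p = 0.166, and 0.41, adjusted p = 0.0106). Ifnar2, Il10rb and Ifnar1 lie side by side on chromosome 16 (chr16:91372783-91405589, chr16:91406157-91425834 and chr16:91485032-91510523) together with Ifngr2, which differed by -0.29 in HC11-mutB1 cells (adjusted p = 0.0178) and was not called. Ifnar1 and Ifngr2 were named after their values were seen.

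Of the interferon genes themselves, 7 of 8 were measured and 2, Ifnl2 and Ifna2, had a mean of at least 4. With limma 0 of the 7 passed in any comparison. At an unadjusted p under 0.05 there were 0 in HC11-mutB1, 1 in HC11-ΔSAP and 0 between the mutants. Over the whole array, 28.4%, 27.7% and 25.2% of probesets had such a p in the same order. Ifnl2 differed by -0.14 and 0.01 and Ifna2 by 0.11 and 0.15 from HC11-FL in HC11-mutB1 and HC11-ΔSAP cells. MHC class II genes, which professional antigen-presenting cells express, were measured for 9 of 11, and 2 of them, H2-DMa and H2-Eb1, had a mean of at least 4. The 1 class II gene that changed was Cd74, the invariant chain, with a mean of 4.36 in the control, 3.76 in HC11-mutB1 and 3.50 in HC11-ΔSAP (-0.60, adjusted p = 0.000151, and -0.86, adjusted p = 2.24e-05), levels around or under 4. That was 1 lower gene of 9 in each mutant, beside 5.04% and 6.02% of all probesets that were lower.

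Among 972 genes with a mean of at least 4 and strain means at least 1 log2 unit apart, the 5 whose levels over the 9 arrays most resembled those of B2m were Orm2 (r = 0.982), Dtna (r = 0.981), Foxd1 (r = 0.980), C1s1 (r = 0.978) and Tmem185b (r = 0.977). Each was lowest in HC11-mutB1 and intermediate in HC11-ΔSAP cells, as was B2m. C1s1, which encodes a complement protease, had a mean of 7.13 in the control, 4.16 in HC11-mutB1 and 5.87 in HC11-ΔSAP. These values describe likeness over arrays that share 3 strains and carry no test.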

How the data were processed

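Affymetrix Mouse Gene arrays were hybridised with RNA of the 3 HC11 strains, 3 arrays each. The authors background-corrected, normalized and summarized the scans by RMA, and deposited the resulting log2 values for 34760 probesets. R 2.10.0 and the affy package are named in the submitters' processing notes. No scan batch was examined, as scan information was not used here. The number of arrays, and not a read depth, limits the precision.

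Probesets took their gene symbols from the array annotation (21640 with 1 symbol, 1321 with several, 11799 with none listed). Per gene, the probeset annotated to it alone with the highest mean was used. Gene positions and promoter windows were from RefSeq on GRCm38.p6.

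Strains were compared in R 4.3.3 by limma 3.58.1. The model had a mean for each strain over all 9 arrays (6 residual and 1.93 prior degrees of freedom) and Benjamini-Hochberg adjustment over all probesets. A gene was called changed at an adjusted p of at most 0.01 with no fold minimum. The fit was tested on simulated data. From each related list, up to 4 genes with the largest difference from HC11-FL and a mean of at least 4 were named. The genes, lists and motifs were chosen with earlier results of these data known. Alternatives covered the filters, the normalization, the samples fitted, a replicate block and leaving out each array. A likeness ranking to H2-K1 was not possible, since it has no probeset of its own.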

Additional observations from a re-analysis of the deposited data

How the results depend on the processing

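The lower heavy chain signal, B2m and Psmb8 in HC11-mutB1 cells and the higher Psmb10 in HC11-ΔSAP cells kept direction and call in every fit that gave them a value, including those with 1 array left out, apart from the 2-fold minimum of the study's filters, which among these only the H2-D1-first probeset passed. Of the 8 genes, 3 changed in HC11-mutB1 versus HC11-FL, 2 when only these strains were fitted, 0 under the study's filters and 2 to 3 with 1 array left out. In HC11-ΔSAP versus HC11-FL 3 changed, but 1 when only these strains were fitted, 1 with the replicate number as a block, 0 under the study's filters and 1 to 2 with 1 array left out. Tap1 and Psmb8 were the calls lost with the block (adjusted p = 0.0265 and 0.0186) and in the fit of only these strains. The trended and robust prior kept a count of 3 but exchanged Tap1 (adjusted p = 0.0117) for Tapbp (0.00354). Tapbp joined, for a count of 4, with arrays centred on their medians, with only probesets of a mean of at least 4, with only probesets of 1 symbol and at an adjusted p of at most 0.05. Between the mutants 0 changed, but 2, B2m and Tapbp, with a trended and robust prior and with the adjusted p allowed to reach 0.05, and 0 in every fit with 1 array left out. Where fewer arrays were fitted, fewer degrees of freedom were left, and otherwise the cause was not tested.

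The H2-D1-first probeset differed between HC11-ΔSAP and HC11-FL by -0.58, and this passed when only these strains were fitted (adjusted p = 0.00136), with only probesets of a mean of at least 4 (0.00905) and at an adjusted p of at most 0.05. The fit with only probesets of 1 symbol gives no value for the joint probesets. The H2-K1-first probeset failed the 2-fold minimum with values of -0.82, -0.40 and 0.42 in the 3 comparisons, and its 0.42 between the mutants was not called when only these strains were fitted (adjusted p = 0.013). With 1 array left out, the H2-D1-first probeset ran from -2.10 to -1.83, from -0.62 to -0.55 and from 1.25 to 1.52, and the H2-K1-first probeset from -0.87 to -0.77, from -0.44 to -0.38 and from 0.37 to 0.47.

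Deviations of same-numbered arrays correlated at 0.11 to 0.26 for replicate 1 and at -0.11 to 0.08 for replicates 2 and 3, so that not every pair was over 0.1 and the replicate numbers were not taken to pair the samples. The replicate block left 3, 1 and 0 of the 8 genes changed in the 3 comparisons.

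Signs turned in 34 values, of which 0 passed the threshold. In HC11-mutB1 versus HC11-FL, Tap2 was -0.0073 after repeated quantile normalization, and Nlrc5 -0.0267 after it and -0.0656 as the mean of its probesets. Ifnar2 in HC11-ΔSAP versus HC11-FL was -0.0085 after quantile normalization. Between the mutants, Nlrc5 was 0.0227 as the mean of its probesets, and Psma7 -0.0025 with centred and -0.0043 with quantile-normalized arrays. With 1 array left out, the ranges that crossed 0 in HC11-mutB1 versus HC11-FL were -0.0312 to 0.0642 for Tap2, -0.0173 to 0.0633 for Tapbp, -0.0698 to 0.0456 for Nlrc5, -0.0713 to 0.0215 for Psma3 and -0.1186 to 0.2681 for Ifna2. In HC11-ΔSAP versus HC11-FL they were -0.0537 to 0.0649 for Mr1, -0.0284 to 0.041 for Psme2, -0.043 to 0.0545 for Ifnar2 and -0.0329 to 0.0799 for Ifnl2. Between the mutants they were -0.0316 to 0.0311 for Psma7, -0.112 to 0.2715 for Ifna2 and -0.0771 to 0.1075 for H2-DMa.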
